A study of Mus musculus with 10 samples.

Results

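The regions described here are the methylated flanks of CpG islands that are unmethylated in sperm. They are autosomal windows of 100 bp, called tiles, that had at least 80% methylation in both CAST/EiJ sperm libraries and started within 2000 bp of an island tile. An island tile had at least 8 measured cytosine positions over the sperm libraries and at most 20% methylation in both, and every tile needed at least 10 counts in each sperm library. Of 183899 autosomal tiles, 17846 were methylated in sperm by these thresholds, and 41 of them (0.230%) met the rule on distance. Of the 41 flank tiles, 25 had at least 10 counts in each embryo group with its libraries summed. Of these, 22 also had a count in every embryo library and are the ones described below, on 12 chromosomes beside 21 island tiles. The other 16 lacked 10 counts in a group and 3 had a library without counts. The tiles were chosen by their methylation in sperm, so sperm values are given as a description only.

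Methylation levels come from RRBS (reduced representation bisulfite sequencing), in which MspI fragments, rich in CpG, are treated with bisulfite and sequenced. There were 2 libraries in each of 5 groups: CKO zygotes, WT zygotes, CKO blastocysts, WT blastocysts and sperm of WT CAST/EiJ males. CKO is the labels' name for embryos of the genotype maternal Tet3 KO, and all embryos, CKO and WT, were C57BL/6J x CAST/EiJ crosses, made in vitro with eggs of females aged 7 to 10 weeks and sperm of adult CAST/EiJ males. Zygotes were taken 13 h and blastocysts 96 h after fertilisation, with 40 to 50 pooled zygotes or 4 pooled blastocysts per library. The Cre driver of the knockout, the state of the paternal Tet3 copy and any assignment of reads to a parental allele are given in none of the sources used here.

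CpG islands are stretches rich in CpG that often hold promoters and stay unmethylated in most cells, and the DNA on either side, the shore, is where methylation begins. Sperm DNA carries high methylation over most of the genome outside such islands, and most of that methylation is lost between fertilisation and the blastocyst. TET3, supplied by the egg, oxidises 5-methylcytosine in the zygote, and methylation is also diluted at each cell division. Bisulfite sequencing reads 5-methylcytosine and 5-hydroxymethylcytosine as the same signal, so an oxidised base of that kind still counts as methylated here.

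Embryo libraries held 1000319 to 1494831 autosomal counts and sperm libraries 2294461 to 2511709. A count is 1 reading of 1 cytosine position, and a tile total adds the positions in it. The 22 flank tiles are thinly covered: the median count per flank tile was between 10.5 and 18.5 in the embryo libraries, single values rested on 1 to 96 counts, and 126 of the 176 pairs of flank tile and embryo library had 10 or more. Of the 22 tiles, 13 held 1 cytosine position, 4 held 2 and 5 held 3. The mean was 1.64 positions per flank tile, against 1.73 in the sperm-methylated tiles beyond 2000 bp. No molecular identifiers were used and a library starts from few genomes, so a level of 0% or 100% can rest on very few molecules. Limits on a count of 0 cover counting error only and take every count as independent. Where positions of a tile share reads, such a limit is too low.

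In sperm, the unmethylated state extended well past the island tile. Among tiles that started up to 500 bp from an island tile, 0 of 2607 were methylated at 80% or more in both libraries, which allows a share of up to 0.115%, and 99.7% were at 20% or less in both. Between 500 and 1000 bp, 3 of 637 tiles (0.471%) were methylated. The count was 15 of 251 (5.98%) between 1000 and 1500 bp and 23 of 132 (17.4%) between 1500 and 2000 bp. Beyond the bound used here, 27 of 87 tiles (31.0%) were methylated at 2000 to 2500 bp and 171 of 440 (38.9%) at 2500 to 5000 bp. From 5000 bp outwards the share lay between 43.9% and 46.0% in every distance class. No flank tile therefore lay closer than 900 bp to its island tile, and the median distance was 1600 bp among the 22. These shares come from the measure that chose the tiles.

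**Figure D1:**
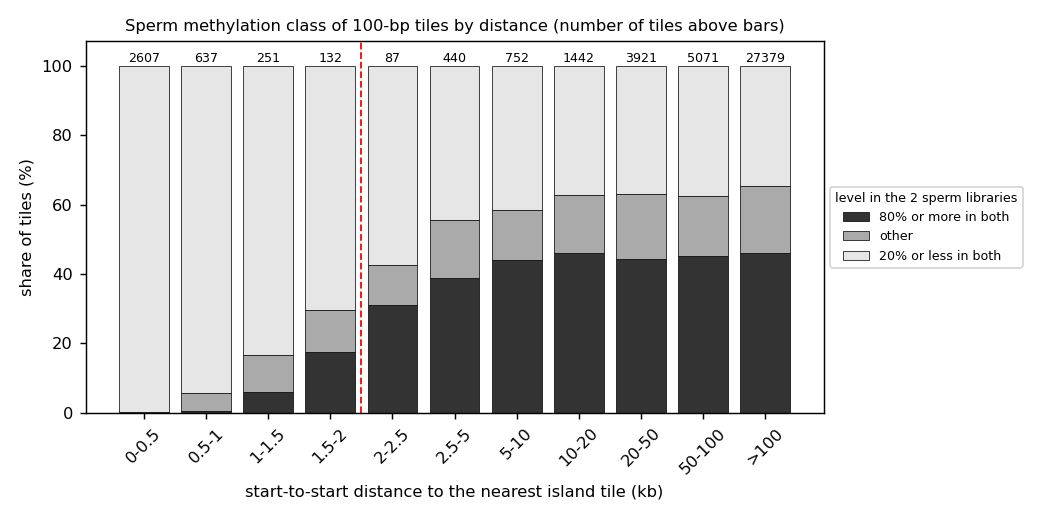
Share of tiles (%) in each sperm methylation class by start-to-start distance to the nearest island tile (kb); the number of tiles stands above each bar and the red dashed line marks the bound of 2000 bp. The dark part, tiles at 80% or more in both sperm libraries, grows from 0 of 2607 tiles within 500 bp to 17.4% at 1500 to 2000 bp and 46.0% beyond 100 kb.

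The flank tiles were at high levels in sperm, intermediate levels in zygotes and low levels in blastocysts. The mean over the 22 tiles was 96.0% and 94.7% in the sperm libraries. It was 59.8% and 65.0% in CKO zygotes and 45.6% and 54.9% in WT zygotes. In blastocysts it was 32.2% and 27.7% in CKO libraries and 20.3% and 22.6% in WT libraries. Set against the level in sperm, CKO zygotes stood at 65.5% of it and WT zygotes at 52.7%, and CKO blastocysts at 31.4% and WT blastocysts at 22.5%. Sperm carries the paternal genome alone, whereas an embryo level may take in both parental alleles. These shares therefore do not measure a loss from the paternal allele. All 4 zygote libraries lay above all 4 blastocyst libraries, and at each stage both CKO libraries lay above both WT libraries.

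**Figure D2:**
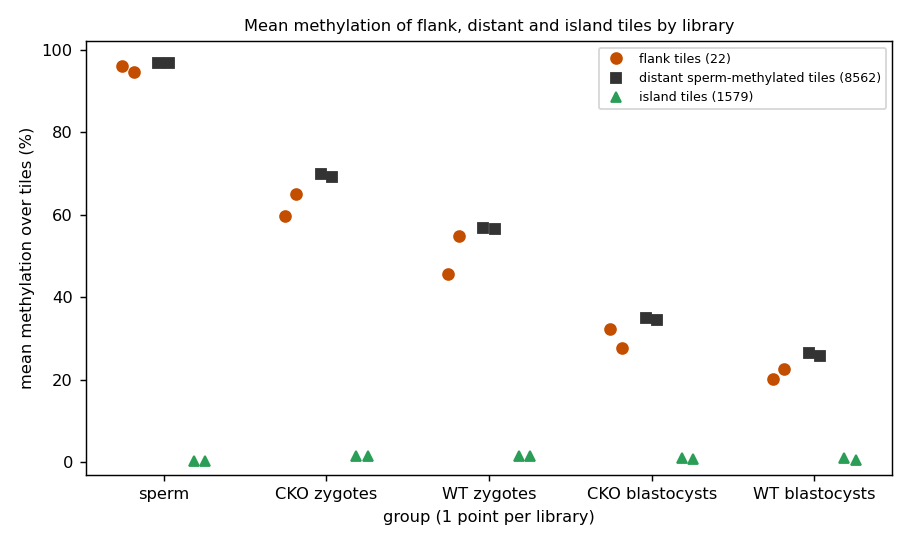
Mean methylation (%) over 22 flank tiles (circles), 8562 distant sperm-methylated tiles (squares) and 1579 island tiles (triangles), 1 point per library, by group. Both CKO circles lie above both WT circles at each stage, and the circles lie below the squares in all 8 embryo libraries.

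The comparison of CKO with WT embryos asks whether flank methylation differs where the egg lacked Tet3. In zygotes the flank tiles averaged 62.4% ± 3.68 in CKO and 50.3% ± 6.60 in WT embryos (SD, n = 2 each), a difference of 12.2 points. The nearest CKO and WT libraries were 4.89 points apart. In blastocysts they averaged 30.0% ± 3.20 in CKO and 21.4% ± 1.63 in WT embryos (SD, n = 2 each), a difference of 8.55 points with a gap of 5.14 points between the nearest libraries. The exact two-sided permutation p was 0.333 at either stage, the smallest that 2 against 2 libraries can give. Over both stages together, with genotypes exchanged within a stage, the difference was 10.4 points with an exact p of 0.0556, the smallest that 36 arrangements allow, so these library means could not reach 0.05. The zygote difference was 7.49 points without WT zygote replicate 1. Apart from the 3-tile case below, the other choices of tiles, weighting or libraries that were run gave 3.48 to 16.8 points in zygotes and 4.59 to 15.0 in blastocysts. The libraries of the genotypes then overlapped in zygotes at a sperm level of 90% (8.22 points, exact permutation p = 0.667) and in blastocysts at 20 counts per group (4.59 points, exact permutation p = 1). At the 3 flank tiles with 10 or more counts in every embryo library the direction was the opposite, with -1.55 points in zygotes and -1.89 in blastocysts. The CKO minus WT difference in blastocysts minus that in zygotes was -3.61 points, with a standard error of 5.92. Its sign was not stable, with -8.28 to 1.06 points when 1 library was left out and up to 3.11 under other choices of tiles.

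Tile by tile, the flanks went both ways. Of the 22, 16 had a higher mean in CKO than in WT zygotes and 6 a lower one, and in blastocysts 15 were higher, 6 lower and 1 equal. The share with a higher CKO mean was 43.6% of all tiles fitted and 66.2% of distant sperm-methylated tiles in zygotes. In blastocysts it was 38.8% of all and 62.1% of distant tiles. The higher CKO mean was found at both stages at 12 flank tiles, in zygotes alone at 3 and in blastocysts alone at 3, while 3 were lower in CKO at both stages. The median difference was 12.4 points in zygotes, beside 0 over all 23535 tiles fitted and 12.1 over the distant sperm-methylated tiles. It was 17.7 points in blastocysts, beside 0 over all tiles and 8.81 over the distant ones. Both CKO libraries exceeded both WT libraries at 5 flank tiles in zygotes (background 14.9% of all tiles and 26.4% of distant tiles) and at 6 in blastocysts (13.2% of all and 24.2% of distant tiles). The reverse was seen at 1 tile in zygotes (background 4.82% of all tiles and 7.37% of distant tiles) and 1 in blastocysts (6.09% of all and 9.89% of distant tiles). Of 22 flank tiles, 5 and 6 lie near the share among distant tiles.

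In edgeR's quasi-likelihood test over 23535 tiles with Benjamini-Hochberg adjustment, 0 of 22 flank tiles passed 0.05 between CKO and WT zygotes, where the percentage called over all tiles was 0, and 0 passed in blastocysts, where it was also 0. At an unadjusted p below 0.05 the same test counted 1 flank tile in zygotes (background 4.16%) and 0 in blastocysts (background 2.5%). EdgeR's likelihood ratio test also called 0 flank tiles in either comparison (background 0.0085% in zygotes and 0% in blastocysts), and so did limma and edgeR with a common dispersion (background 0% for both tools). For the change of the genotype difference between stages, the quasi-likelihood test called 0 flank tiles (background 0.00425%), with 0 at an unadjusted p below 0.05 (background 2.07%). The likelihood ratio test (background 0.0085%), limma and the common dispersion (0% each) called 0 there too. The quasi-likelihood fit estimates the ratio of the variance between libraries to the binomial variance, moderated over tiles. Its median was 7.13 over all 23535 tiles fitted and was not taken for the flank tiles alone. Counts that share a read also enter it. A ratio of this size limits what a tile with 10 to 20 counts can show.

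**Figure D3:**
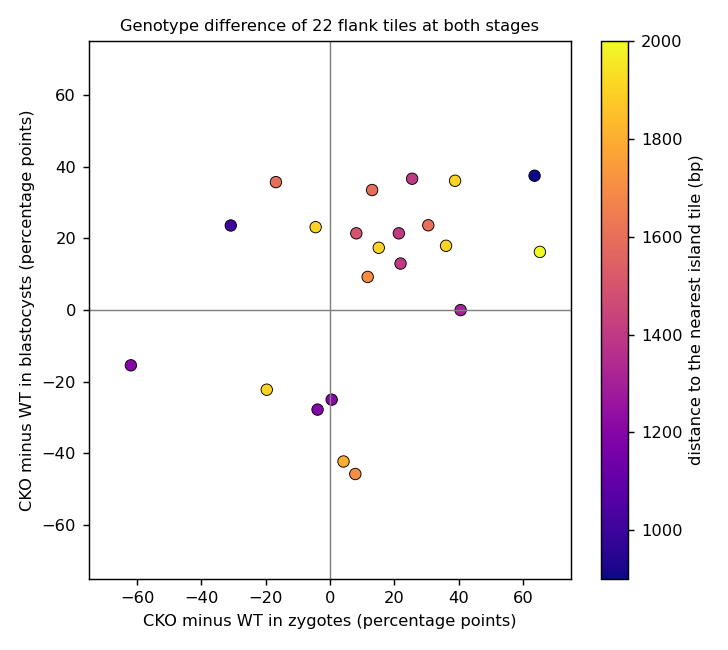
CKO minus WT difference in blastocysts against that in zygotes (percentage points of the group means) for the 22 flank tiles, 1 point per tile, coloured by distance to the island tile (bp). Of the 22 points, 12 lie at the upper right, where CKO was higher at both stages, and 3 in the lower left.

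Between the zygote and the blastocyst the flank level was lower in both genotypes. In CKO embryos it averaged 30.0% in blastocysts against 62.4% in zygotes, a difference of -32.4 points with 27.6 points between the nearest libraries. In WT embryos it averaged 21.4% in blastocysts against 50.3% in zygotes, a difference of -28.8 points with 23.0 points between the nearest libraries. The exact permutation p was again 0.333 in each genotype. The blastocyst mean was lower at 18 of 22 flank tiles in CKO and at 19 of 22 in WT embryos, and at 15 in both. Over all tiles fitted the blastocyst mean was lower at 55.7% in CKO and 52.2% in WT embryos. Over the distant sperm-methylated tiles it was lower at 88.0% in CKO and 84.5% in WT embryos. Both CKO blastocyst libraries lay below both CKO zygote libraries at 13 flank tiles (background 29.7% of all tiles and 54.8% of distant tiles). Both WT blastocyst libraries lay below both WT zygote libraries at 8 (25% of all and 47% of distant tiles). At no flank tile did both blastocyst libraries of a genotype lie above both zygote libraries (background 1.71% of all and 1.69% of distant tiles in CKO, and 2.25% of all and 2.65% of distant tiles in WT). The median change over the flanks was -29.0 points in CKO and -29.9 in WT embryos. Over all tiles fitted it was -4.58 in CKO and -1.92 in WT embryos, and over the distant sperm-methylated tiles -35.9 in CKO and -31.4 in WT embryos.

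By edgeR's quasi-likelihood test, 0 of 22 flank tiles passed an adjusted p of 0.05 between stages in CKO embryos (background 0.195%) and 0 in WT embryos (background 0.106%). At an unadjusted p below 0.05 there were 6 flank tiles in each genotype, all lower in blastocysts (background for lower tiles 10.4% in CKO and 9.32% in WT). That background covers all tiles fitted, with 1579 island tiles that were already low in zygotes among them. The share among distant sperm-methylated tiles was not computed, so no excess at the flanks can be read from these counts. Limma and edgeR with a common dispersion called 0 in either genotype (background 0%). EdgeR's likelihood ratio test called 1 flank tile in CKO embryos, chr11:97520301-97520400, with an adjusted p of 0.0416 (background 2.02%), and 0 in WT embryos (background 1.98%).

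The spread over tiles within a library was large. In CKO blastocysts 6 of the 22 tiles had a group mean of 20% or less, against 0 in CKO zygotes, and in WT blastocysts 13 did, against 2 in WT zygotes. Among distant sperm-methylated tiles the share at 20% or less was 29.5% in CKO blastocysts and 1.46% in CKO zygotes. It was 47.2% in WT blastocysts and 8.88% in WT zygotes. Means of 80% or more were found at 7 flank tiles in CKO zygotes and 3 in WT zygotes, and at 0 in CKO blastocysts and 0 in WT blastocysts. The shares among distant tiles were 35.5%, 20.7%, 3.01% and 2.13% in the same order. At 2 flank tiles no methylated count was seen in either CKO blastocyst library, where the counts, taken as independent, allow levels of up to 13.6% and 17.6%. At 7 tiles none was seen in either WT blastocyst library, with limits between 5.88% and 23.1% on the same basis. Libraries of the same group did not rank the tiles alike. Pearson's r between the 2 libraries over the 22 tiles was 0.11 in CKO zygotes, -0.11 in WT zygotes, -0.02 in CKO blastocysts and 0.19 in WT blastocysts. Over the 8562 distant tiles it was 0.10, 0.15, 0.11 and 0.25 in the same groups. The median difference between the 2 libraries at a flank tile was 24.1 points in CKO zygotes, 42.4 in WT zygotes, 26.3 in CKO blastocysts and 14.8 in WT blastocysts, against 3.96 in sperm. Over distant tiles it was 23.1, 29.4, 26.3 and 19.4 points in the same embryo groups.

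**Figure D4:**
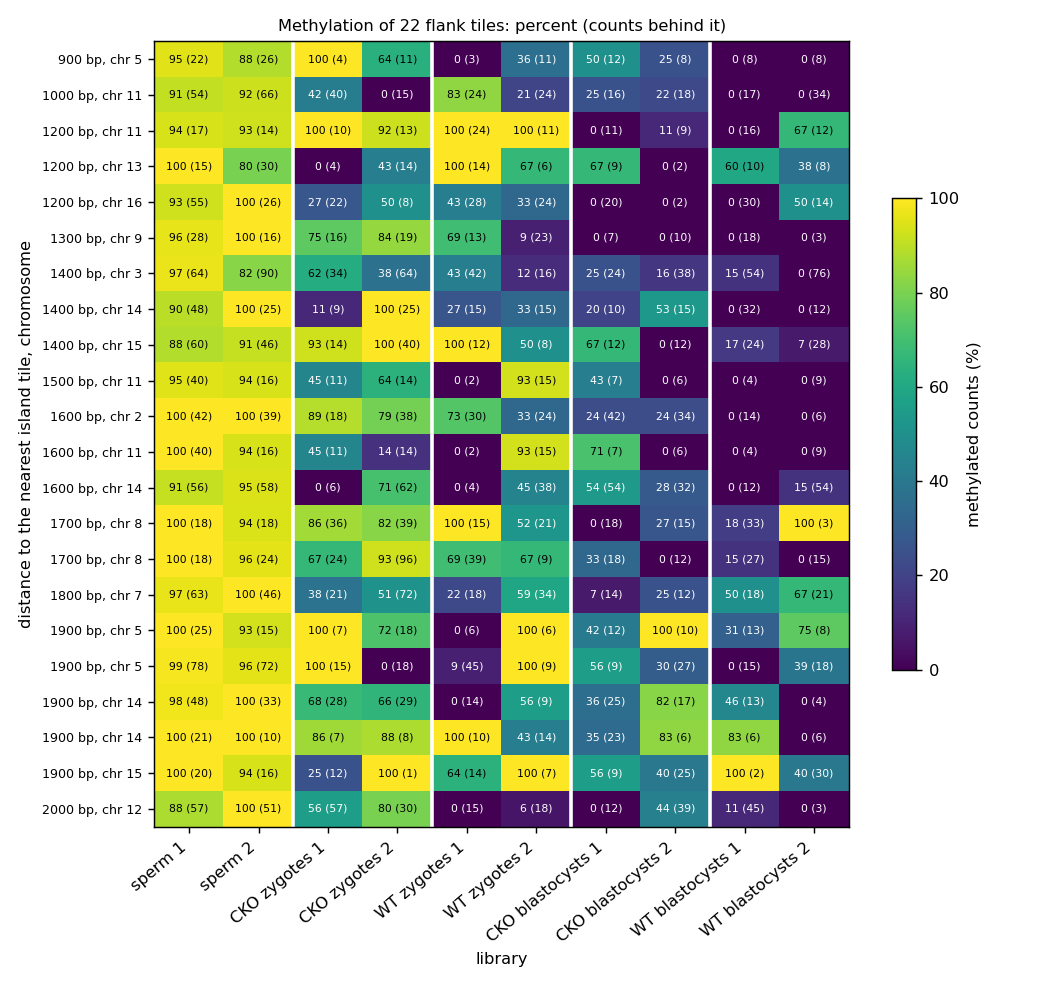
Methylation (%) of each of the 22 flank tiles (rows, by distance to the island tile in bp and chromosome) in each library (columns), with the counts behind it in brackets. The sperm columns lie at 80% or more throughout, while the WT blastocyst columns are at 20% or less in 16 and 14 of the 22 rows.

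The 3 flank tiles with 10 or more counts in every embryo library show what the better covered data look like. At chr3:89152401-89152500, 1400 bp from its island tile, CKO zygotes had 61.8% and 37.5% (21 of 34 and 24 of 64 counts) and WT zygotes 42.9% and 12.5% (18 of 42 and 2 of 16). In blastocysts the same tile had 25.0% and 15.8% in CKO (6 of 24 and 6 of 38 counts) and 14.8% and 0% in WT (8 of 54 and 0 of 76). The groups overlap in zygotes, and in blastocysts both CKO libraries lie above both WT libraries, by 13.0 points on average. The edgeR adjusted p was 1 at both stages.

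At chr11:120011001-120011100, 1000 bp from its island tile, CKO zygotes had 42.5% and 0% (17 of 40 and 0 of 15 counts) and WT zygotes 83.3% and 20.8% (20 of 24 and 5 of 24). In blastocysts it had 25.0% and 22.2% in CKO (4 of 16 and 4 of 18 counts) and 0% in both WT libraries (0 of 17 and 0 of 34), which allows up to 5.88%. CKO was higher by 23.6 points in blastocysts, where the libraries do not overlap, and lower by 30.8 points in zygotes, where they do. Its WT change between stages was -52.1 points, with an edgeR adjusted p of 0.343. At chr7:148129501-148129600, 1800 bp away, the order in blastocysts was the opposite. CKO blastocysts had 7.14% and 25.0% (1 of 14 and 3 of 12 counts) and WT blastocysts 50.0% and 66.7% (9 of 18 and 14 of 21), a difference of -42.3 points. CKO zygotes had 38.1% and 51.4% and WT zygotes 22.2% and 58.8%, so WT blastocysts lay within or above the range of WT zygotes at this tile. No comparison of either tile passed the adjusted threshold.

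The island with 2 flank tiles was on chromosome 11. The adjacent tiles chr11:115129801-115129900 and chr11:115129901-115130000 had equal totals in 10 of 10 libraries, so they are read on the same fragments and are not independent. The first had 45.5% and 64.3% in CKO zygotes and 0% and 93.3% in WT zygotes, the 0% resting on 2 counts. It had 42.9% and 0% in CKO blastocysts and 0% in both WT blastocyst libraries (0 of 4 and 0 of 9 counts). These 13 WT blastocyst counts allow up to 23.1%, and the genotypes overlap at both stages. The second tile had 45.5% and 14.3% in CKO zygotes, 71.4% and 0% in CKO blastocysts and the same WT levels, also with overlap. CKO minus WT in zygotes was 8.20 points at the first tile and -16.8 at the second. The CKO change between stages was -33.4 points at the first and 5.84 at the second. At chr14:56111701-56111800, 1600 bp from its island tile, CKO blastocysts had 53.7% and 28.1% (29 of 54 and 9 of 32 counts) and WT blastocysts 0% and 14.8% (0 of 12 and 8 of 54). CKO was higher by 33.5 points there, without overlap, at an adjusted p of 1.

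The tiles in the rest of this account were picked after their values were seen, for large differences, for libraries that do not overlap or for high blastocyst means. At chr12:85293801-85293900, 2000 bp away, CKO zygotes had 56.1% and 80.0% (32 of 57 and 24 of 30 counts) and WT zygotes 0% and 5.56% (0 of 15 and 1 of 18). By edgeR's quasi-likelihood test this was the only flank tile with an unadjusted p below 0.05 between genotypes, 0.0162, at an adjusted p of 1 and a difference of 65.3 points. In blastocysts it had 0% and 43.6% in CKO and 11.1% and 0% in WT, and the groups overlap. Among the flank tiles used, the closest to its island tile, start to start, was chr5:108862101-108862200 at 900 bp. It had 100% and 63.6% in CKO zygotes (4 of 4 and 7 of 11 counts) and 0% and 36.4% in WT zygotes (0 of 3 and 4 of 11). It had 50.0% and 25.0% in CKO blastocysts (6 of 12 and 2 of 8) and 0% in both WT blastocyst libraries (0 of 8 in each, which allows up to 18.8%). CKO lay above WT without overlap at both stages, on few counts.

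The tile chr2:127414801-127414900, 1600 bp away, was also separate at both stages. It had 88.9% and 78.9% in CKO zygotes (16 of 18 and 30 of 38 counts) and 73.3% and 33.3% in WT zygotes (22 of 30 and 8 of 24). In blastocysts it had 23.8% and 23.5% in CKO (10 of 42 and 8 of 34) and 0% in both WT libraries (0 of 14 and 0 of 6, which allows up to 15.0%). That limit takes the counts as independent, and this tile held 3 positions. In both genotypes the blastocyst libraries lay below the zygote libraries, and its lowest edgeR adjusted p was 0.284, for CKO blastocysts against CKO zygotes. The reverse order in zygotes was seen at chr13:95557801-95557900, 1200 bp away. CKO zygotes had 0% and 42.9% there (0 of 4 and 6 of 14 counts) and WT zygotes 100% and 66.7% (14 of 14 and 4 of 6), a difference of -61.9 points at an adjusted p of 1. The lowest difference in blastocysts was at chr8:119447501-119447600, 1700 bp away, with 0% and 26.7% in CKO blastocysts (0 of 18 and 4 of 15 counts) and 18.2% and 100% in WT blastocysts (6 of 33 and 3 of 3). It was -45.8 points at an adjusted p of 1, the libraries overlap, and the 100% rests on 3 counts.

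The largest change between stages among the 22 flank tiles, in CKO and in WT embryos, was at chr11:97520301-97520400, 1200 bp from its island tile. CKO blastocysts had 0% and 11.1% (0 of 11 and 1 of 9 counts) against 100% and 92.3% in CKO zygotes (10 of 10 and 12 of 13), a difference of -90.6 points with an adjusted p of 0.272 by the quasi-likelihood test. WT blastocysts had 0% and 66.7% (0 of 16 and 8 of 12 counts) against 100% in both WT zygote libraries (24 of 24 and 11 of 11). All 4 zygote libraries thus lay at or near the sperm levels of 94.1% and 92.9%. At chr9:108978001-108978100, 1300 bp away, no methylated count was seen in any blastocyst library, with 0 of 7 and 0 of 10 counts in CKO and 0 of 18 and 0 of 3 in WT. Zygotes had 75.0% and 84.2% there in CKO and 69.2% and 8.70% in WT.

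The flank tiles with the highest blastocyst means are given with their zygote levels. The highest CKO blastocyst mean was at chr5:120951701-120951800, 1900 bp away, with 41.7% and 100% (5 of 12 and 10 of 10 counts), against 30.8% and 75.0% in WT blastocysts (4 of 13 and 6 of 8). The highest WT blastocyst mean was at chr15:78710101-78710200, also 1900 bp away, with 100% and 40.0% (2 of 2 and 12 of 30 counts), against 55.6% and 40.0% in CKO blastocysts (5 of 9 and 10 of 25). In zygotes the first had 100% and 72.2% in CKO (7 of 7 and 13 of 18) and 0% and 100% in WT (0 of 6 and 6 of 6). The second had 25.0% and 100% in CKO zygotes (3 of 12 and 1 of 1) and 64.3% and 100% in WT zygotes (9 of 14 and 7 of 7). The genotypes overlap at both tiles. With libraries this far apart, these values do not show that methylation was kept.

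The flanks were compared with the 8562 sperm-methylated tiles that start more than 2000 bp from any island tile. These distant tiles averaged 69.6% ± 0.498 in CKO zygotes, 56.7% ± 0.214 in WT zygotes, 34.7% ± 0.326 in CKO blastocysts and 26.1% ± 0.549 in WT blastocysts (SD of the 2 libraries), and 96.8% in sperm. The flank mean was lower in 8 of 8 embryo libraries, with differences of -11.2 to -1.60 points. The mean difference was -5.76 points, with an exact sign-flip permutation p of 0.00781, the smallest that 256 sign patterns can give. Here and in the sign-flip tests below, the 8 libraries come as 2 per group and are not 8 separate conditions. The p of 0.00781 (exact sign-flip permutation) compares libraries and takes the 22 tiles as given. The same tiles enter every library, and the SD over the 22 tiles within a library was 24.0 to 41.0 points. With the sperm threshold raised to 90%, which leaves 16 flank tiles, the difference was -4.43 points with an exact permutation p of 0.0781. It was larger under some choices of fewer tiles: -9.26 points for the 13 with 20 counts per group, -17.7 for the 3 with 10 counts in every library and -17.5 for the 2 within 1000 bp. Other choices of fewer tiles gave no larger value. It was -5.69 points for the 11 beside islands of 10 or more positions at 10% or less. Without the adjacent pair that shares fragments, which leaves 20, it was -4.59 points. The genotype difference was 12.2 points at the flanks and 12.9 at distant tiles in zygotes, and 8.55 and 8.58 points in blastocysts, and over both stages the flank value minus the distant value was -0.377 points (exact permutation p = 0.889). Its sign was not stable, with -2.79 to 2.03 points when 1 library was left out and 4.90 points when tile counts were summed before the level was taken.

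Sperm-methylated tiles just beyond the bound were compared next. Against the 91 tiles at 2000 to 5000 bp, a comparison added after the data had been seen, the flank mean was lower in 5 of 8 libraries, by 1.73 points on average (exact sign-flip permutation p = 0.438). Leaving out 1 library gave -2.79 to -0.493 points. With summed counts the value was -3.88 (exact permutation p = 0.0469), at the 3 tiles with 10 counts in every library -13.3 (exact permutation p = 0.0313), and with stricter islands 1.28. Farther out, the classes at 2000 to 2500 bp (15 tiles), 2500 to 5000 bp (76 tiles) and beyond 100 kb (6017 tiles) are given in this order (SD of the 2 libraries). CKO zygotes had 72.0% ± 8.31, 65.7% ± 1.90 and 69.7% ± 0.696, and WT zygotes 53.0% ± 8.92, 54.1% ± 1.63 and 57.1% ± 0.0518. CKO blastocysts had 28.1% ± 23.6, 31.2% ± 2.30 and 35.1% ± 0.570, and WT blastocysts 14.8% ± 5.14, 20.6% ± 5.53 and 27.1% ± 0.629. Within the flanks, in a split also chosen after the data had been seen, the 10 tiles up to 1500 bp from the island tile averaged 59.5% in CKO zygotes, 51.0% in WT zygotes, 21.2% in CKO blastocysts and 12.6% in WT blastocysts. The 12 tiles beyond averaged 64.8%, 49.6%, 37.3% and 28.7% in the same groups, so WT zygotes went the other way. Over all 8 embryo libraries the nearer tiles were lower by 9.03 points on average and in 7 of 8 libraries, with an exact sign-flip permutation p of 0.117, so the difference did not pass 0.05. Without WT zygote replicate 1 it was -13.2 points with an exact permutation p of 0.0156, and with 20 counts per group it was -2.57 points with an exact permutation p of 0.609. The genotype difference of the nearer minus the farther flank tiles was -3.33 points (exact permutation p = 0.778), with -12.6 to 5.99 points when 1 library was left out.

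**Figure D5:**
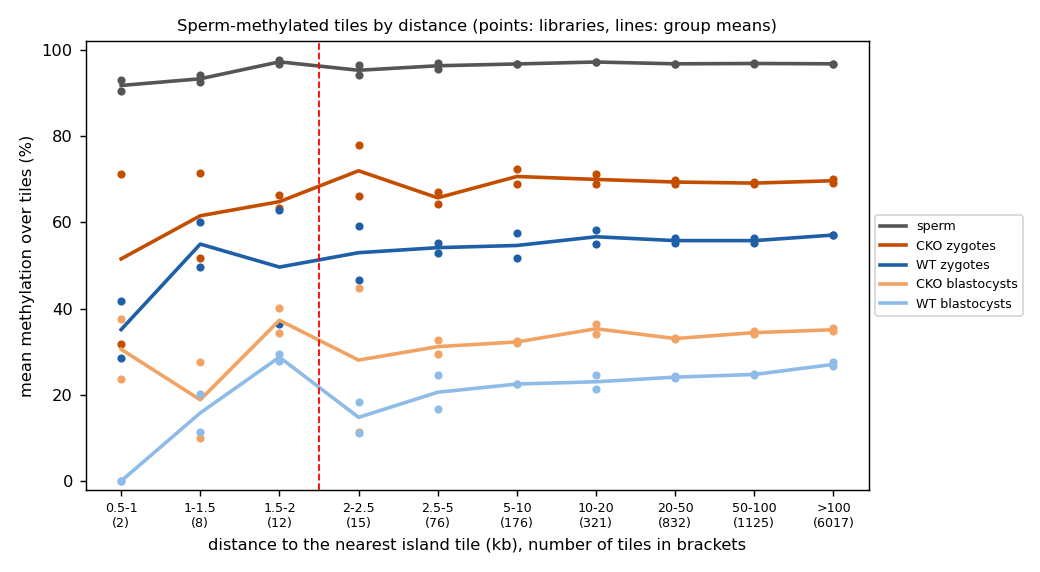
Mean methylation (%) of sperm-methylated tiles by distance to the nearest island tile (kb), points for libraries and lines for group means, with the number of tiles in brackets and the red dashed line at the bound of 2000 bp. WT blastocyst means run between 14.8% and 28.7% in the classes with 12 or more tiles and end at 27.1% beyond 100 kb, and the CKO line lies above the WT line of its stage in every class.

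As a description over the 22 tiles, Spearman's rho between distance and group mean was 0.57 in sperm, 0.21 in CKO zygotes, 0.01 in WT zygotes, 0.44 in CKO blastocysts and 0.40 in WT blastocysts. The tiles share libraries, and their coverage varies. The 13 tiles with 1 cytosine position averaged 60.6% in CKO zygotes, 52.9% in WT zygotes, 34.4% in CKO blastocysts and 25.2% in WT blastocysts. The 9 tiles with 2 or 3 positions averaged 65.1%, 46.4%, 23.6% and 15.9% in the same groups.

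The island tiles themselves stayed low in the embryos. The 21 nearest to the flanks averaged 1.45% ± 2.05 in CKO zygotes, 1.36% ± 0.764 in WT zygotes, 1.46% ± 0.146 in CKO blastocysts and 0.821% ± 0.525 in WT blastocysts (SD of the 2 libraries), and 0.123% in sperm. CKO zygote replicate 2 had 0 of 1871 methylated counts there, which allows up to 0.160% if every count is independent. Counts at adjacent positions can share a read, so the true limit may be higher. Of the 14 nearest island tiles with enough counts to be fitted, 12 were at 20% or less in every embryo library, and the highest single value was 28.2%. All 1579 island tiles with enough counts averaged 1.63% in CKO zygotes, 1.50% in WT zygotes, 0.924% in CKO blastocysts and 0.844% in WT blastocysts.

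Between the flank tiles on either side of a sperm level of 90%, mean levels differed little in CKO embryos and more in WT embryos. The 16 flank tiles at 90% or more in both sperm libraries averaged 62.5% in CKO zygotes, 54.3% in WT zygotes, 29.8% in CKO blastocysts and 24.9% in WT blastocysts. The 6 with a lower sperm value between 80% and 90%, just inside the rule, averaged 62.2%, 39.5%, 30.5% and 12.3% in the same groups. The 7 tiles within 2000 bp whose lower sperm value was between 60% and 80%, just outside it, averaged 60.1%, 55.8%, 24.9% and 21.5%. These classes are small and the differences between them were not tested. WT levels did not fall steadily with the sperm level.

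When the counts of all 41 flank tiles were summed, a step added after the data had been seen that brings in the 19 tiles not used above, the order of the groups was the same. The share of methylated counts was 61.6% and 65.0% in CKO zygotes (400 of 649 and 535 of 823 counts) and 56.3% and 42.9% in WT zygotes. It was 29.5% and 32.0% in CKO blastocysts and 16.0% and 22.6% in WT blastocysts. The means were 63.3% ± 2.38 in CKO zygotes and 49.6% ± 9.46 in WT zygotes, and 30.8% ± 1.80 in CKO against 19.3% ± 4.70 in WT blastocysts (SD, n = 2 each). CKO lay above WT without overlap at both stages. These sums give more weight to the deeper tiles, and the sperm libraries gave 95.5% and 95.0%.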

How the data were processed

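Per the labels, each library is a pool of embryos, or sperm, digested with MspI and bisulfite-converted, and the 2 libraries of a group are biological duplicates. P-values rest on these libraries alone. Tests between groups compare libraries, and the sign-flip tests take the difference of 2 tile classes within each embryo library. The authors deposited 1 file per library, with the percent methylation of every cytosine position and the 2 read counts, methylated and unmethylated, behind it. Bismark 0.10.1, Trim Galore and mm9 are the tools and build in the submitters' processing notes, without settings. Coordinates are mm9, counted from 1. The gene and promoter tables at hand describe another build, so tiles were given no gene, exon or UTR and no sequence.

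Here the deposited counts were summed over 100-bp tiles on autosomes with Python 3.11.15, pandas 2.3.3 and numpy 2.4.6. A tile was fitted with at least 10 counts in each embryo group and 1 in each embryo library, which left 23535 tiles. Adjacent positions can lie on the same read, so counts are not numbers of reads. The tile test was edgeR's quasi-likelihood test (edgeR 4.0.16 in R 4.3.3) on the methylated and the unmethylated count of each tile, with a term per library, the negative binomial dispersion at 0 and Benjamini-Hochberg adjustment at 0.05. Limma 3.58.1, edgeR's likelihood ratio test and a common dispersion were alternatives. Library means over tiles weight each tile equally and were compared by exact two-sided permutation tests. Where no methylated count was seen, the limit given is 3 counts of those present. It takes counts as independent, so it is too low where counts share reads. Single tiles were named if they passed the test, or if they had 10 counts in every library without overlap of the groups, or lay by 1 of the 3 islands with the most flank tiles (ties broken by counts), and others as said in the text. The members and lists were chosen with earlier results of these data known.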

Additional observations from a re-analysis of the deposited data

How the results depend on the processing

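Of 292 values of 15 tested results recomputed under alternatives, 268 kept their direction and their side of 0.05 (counts of calls within 1.5 times). For results of 2 against 2 libraries (smallest exact permutation p 0.333) or of 36 arrangements (0.0556), the side of 0.05 was fixed in advance. Only the direction could change there. Leaving out a library of 1 stage leaves the differences within the other stage unchanged, and these values are among the 268. The change of the genotype difference between stages has no p and turned positive under 4 of its alternatives, with 0.404 for summed counts, 2.86 for stricter islands, 1.06 without WT zygote replicate 1 and 3.11 for the rule's minimum alone. Leaving out 1 library gave 7.49 to 16.8 points for CKO minus WT zygotes, 6.29 to 10.8 for blastocysts, -6.35 to -4.97 for flank minus distant tiles, and 0 calls among the flank tiles in every comparison. Without 1 library the genotype difference of flank minus distant tiles ran from -2.79 to 2.03 points, that of nearer minus farther flank tiles from -12.6 to 5.99, and nearer minus farther tiles from -13.2 to -6.40. With 10 counts in every embryo library 3 flank tiles remained, and values became -1.55 points in zygotes, -1.89 in blastocysts, -1.72 over both stages, 26.0 for the genotype difference of nearer minus farther tiles and -13.3 for flank tiles minus tiles 2000 to 5000 bp away (exact permutation p = 0.0313). With summed counts the genotype difference of flank minus distant tiles was 4.90 points, and flank tiles minus tiles 2000 to 5000 bp away was -3.88 (exact permutation p = 0.0469). A sperm level of 90% gave -4.43 points for flank minus distant tiles, and islands of 10 or more positions at 10% or less gave 1.28 against tiles 2000 to 5000 bp away. For nearer minus farther flank tiles, islands of 6 or more CpG sites gave -11.0 points (exact permutation p = 0.0313), with a genotype difference of 1.21, 20 counts per group gave -2.57 (exact permutation p = 0.609), and all 41 tiles summed gave -9.75 (exact permutation p = 0.0156), with 4.65. That genotype difference was 7.80 without a group minimum and 14.4 with a 1000 bp split, where the genotype difference of flank minus distant tiles was 12.7 and the level -17.5. The likelihood ratio test called 1 flank tile for CKO blastocysts against CKO zygotes, where it called 2.02% of all tiles. The cause of these changes was not tested. Over sperm-methylated tiles, the differences between replicates 1 and 2 were nearly uncorrelated between groups (correlations of -0.010 to 0.038). A shift shared by all tiles of same-numbered libraries would not show in such a correlation. The check therefore cannot decide whether the numbers pair the libraries. With the replicate block 0 flank tiles were called in all 5 comparisons. A planned comparison of the nearest with the farthest distance class gave no value, since no flank tile lay in the nearest class. Single tiles are limited by their depth, a median of 10.5 to 18.5 counts per library, and by the spread between libraries.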
